A study of Mus musculus with 8 samples.

Results

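The enzymes that make melanin are encoded by Tyr, Tyrp1 and Dct, and the chromatin at these 3 genes was examined by ATAC-seq. In this assay a transposase cuts and tags accessible DNA, so that a higher count at a region means more open chromatin there. A region was taken as belonging to a gene if it overlapped the gene (GRCm38) or lay within 50 kb of it with that gene as the nearest protein-coding gene end. This rule found 32 of the 148664 regions in the deposited count table, 9 at Tyr, 12 at Tyrp1 and 11 at Dct. They comprised 3 promoter regions, 10 other regions inside the genes, 8 upstream and 11 downstream. Outside the 50 kb limit, only Tyrp1 was the nearest gene of a further region (64.0 kb away, 0.339 to 3.48 CPM, counts scaled to a library size of 1000000), while the outermost regions included lay 35.1 kb from Tyr, 45.1 kb from Tyrp1 and 28.1 kb from Dct. The peak lists of the 8 libraries hold no peak at these loci outside the regions of the table.

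The 8 libraries came from 4 mouse melanoma cell lines, with 2 biological replicates of 50000 cells per line. Lines 112 and 113 are labelled STAT3 knockout (Stat3∆) and lines 119 and 73 wild type (Stat3fl). All were grown from lymph node cells of mice whose cutaneous melanoma had appeared at 25 to 30 weeks of age. The labels call a line both a pool and a clone, and give a p number of unstated meaning (p18 on 112, p44 on 113, p14 on 119 and p68 on 73). How Stat3 was deleted, in which cells, and what drives the melanoma in these mice are not given in the sources used here. The title of the series asks whether STAT3, acting through C/EBP factors, represses the pigmentation genes under MITF. STAT3 relays signals of cytokine receptors to the nucleus, and MITF is the master transcription factor of melanocytes.

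Tyrosinase (Tyr) carries out the first and rate-limiting step of melanin synthesis, the oxidation of tyrosine, and its loss causes albinism. Dopachrome tautomerase (Dct) and tyrosinase-related protein 1 (Tyrp1) act later, on the way to brown-black eumelanin. All 3 are classic MITF targets, bound at an E-box with a CATGTG core in their proximal promoters. Mouse Tyr and Tyrp1 are also known for upstream enhancers that act in melanocytes with SOX10, a lineage transcription factor. Whether the upstream elements described here are those enhancers was not tested.

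The 250 bases before the start site of each gene are printed because chromatin at the gene starts separated the genotypes, as described next. For Tyr this stretch is partly covered by the region that spans the start and does not overlap the region 479 bp upstream that the rule took as promoter. They are RefSeq sequences of GRCm38.p6, given 5′ to 3′ on the strand of the gene. Those of Tyr are chr7:87493513-87493762 on the minus strand, those of Tyrp1 chr4:80833963-80834212 on the plus strand and those of Dct chr14:118052247-118052496 on the minus strand. Capitals mark the longest run of letters that all 3 share on the same strand.
Tyr: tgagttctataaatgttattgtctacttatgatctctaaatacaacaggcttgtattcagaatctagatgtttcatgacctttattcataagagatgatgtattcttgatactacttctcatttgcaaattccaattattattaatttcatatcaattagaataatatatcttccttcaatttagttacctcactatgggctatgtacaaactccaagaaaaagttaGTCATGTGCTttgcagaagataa
Tyrp1: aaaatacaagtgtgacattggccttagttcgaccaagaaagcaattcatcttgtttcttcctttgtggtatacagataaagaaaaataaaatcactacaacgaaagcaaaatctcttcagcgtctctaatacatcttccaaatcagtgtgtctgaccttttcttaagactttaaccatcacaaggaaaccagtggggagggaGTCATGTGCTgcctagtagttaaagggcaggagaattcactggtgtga
Dct: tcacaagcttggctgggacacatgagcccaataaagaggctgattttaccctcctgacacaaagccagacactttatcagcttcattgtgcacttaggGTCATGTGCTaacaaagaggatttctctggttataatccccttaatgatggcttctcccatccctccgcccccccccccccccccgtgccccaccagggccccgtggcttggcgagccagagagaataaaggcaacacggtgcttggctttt

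The shared run, GTCATGTGCT, contains the CATGTG core. Its first base lies 23 bases before the start site of Tyr, 48 before that of Tyrp1 and 152 before that of Dct. On either strand it was found in 23 of 21263 promoters of the same 300-base window (250 before the start to 50 after), or 0.108%. CATGTG alone was found in 11.5% of promoters. The longer MITF motif core AGTCATGTG, which overlaps the shared run, was found at Tyr and Tyrp1 and in 0.216% of all promoters, and was not found at Dct. The STAT letters TTCNNNGAA (7.69% of promoters) and the AP-1 letters TGANTCA (6.99%) had no match in the 3 windows. The C/EBP letters TTGCNNAA (10.2%) matched at Tyr alone. The SOX letters ACAAAG (16.8%) matched at Tyrp1 and Dct, and ACAATG (11%) at Dct. A match is a run of letters, not evidence of binding, and a window without one says nothing about the factor. The GC content was 28.8% at Tyr, 39.2% at Tyrp1 and 54% at Dct, against a median of 55.6% over all promoters.

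Library totals ranged from 2697546 counts in line 112 replicate 2 to 7464336 in line 119 replicate 1, and CPM values were taken after TMM scaling, a correction for library composition. Read at the strongest region near each gene's start or end, the 7 melanocyte markers were all detected, with summed levels of 153 to 294 CPM in the knockout libraries and 123 to 132 in the wild type. Within this list the markers of line 73 went in both directions. Sox10 (3.06 CPM) and Pax3 (6.22) were lower there than in the other lines (17.6 to 28.3 and 31 to 54.4). So were Kit (6.66, others 11.9 to 47.2), Ednrb (2.46, others 10.1 to 37.1) and Mlana (0.253, others 0.748 to 10.7). Mitf (38.7) and Pmel (73.8) had their highest line means in line 73. The summed mean of line 73 was 131 CPM, against 123 for line 119. The 6 fibroblast markers summed to a mean of 136 CPM in line 73, against 35.7, 32.4 and 41.5 for lines 112, 113 and 119. In line 73 Pdgfrb was at 47.7, Col1a1 at 35.4, Col1a2 at 31.9, Pdgfra at 12.7 and Dcn at 7.81, each the highest line mean. Lum went the other way, with 0.666 in line 73 against 2.56, 1.53 and 0.449 in lines 112, 113 and 119. No region that passed the filter on low counts was found for 4 of 6 T and B cell markers (Ptprc, Cd3e, Cd3g, Cd79a), 3 of 4 myeloid, 3 of 4 endothelial and all 4 keratinocyte markers. The summed levels of those found were at most 11.9, 5.5 and 7.52 CPM in any library. The 4 Schwann cell markers, a neural crest lineage related to melanocytes, summed to 38.3 to 86 CPM in the knockout libraries and 27.6 to 64.4 in the wild type. The start region of Stat3 was open in all lines (means of 28.8, 38.6, 18.3 and 33.2 CPM in lines 112, 113, 119 and 73) and does not check the genotype labels, since a deletion elsewhere in the gene would not show there. Ddx3y, Eif2s3y and Uty of chromosome Y had 0 counts in both knockout lines and means of 8.6 to 17.4 CPM in the wild type lines, so genotype and presence of these genes cannot be told apart. Xist had 2.05 and 4.95 CPM in lines 112 and 113 and 0.0648 and 0 in lines 119 and 73, so the sex of the source animals, which the labels do not give, and the genotype cannot be told apart either. Below, markers and p number are given as facts about the lines, and their part in the results was not tested.

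The promoters of all 3 melanin enzymes were more accessible in every knockout library than in any wild type library. The single strongest distal element of each gene did not separate the libraries by genotype, although some other distal elements did. In wild type line 119 these 3 elements were at least as open as in knockout line 112, or did not differ from it beyond the spread between libraries, and in wild type line 73 they were lower than in every other line, nearly without counts at Tyr and with a moderate signal at Dct. The plot of CPM at promoters and strongest distal elements shows both patterns.

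**Figure D1:**
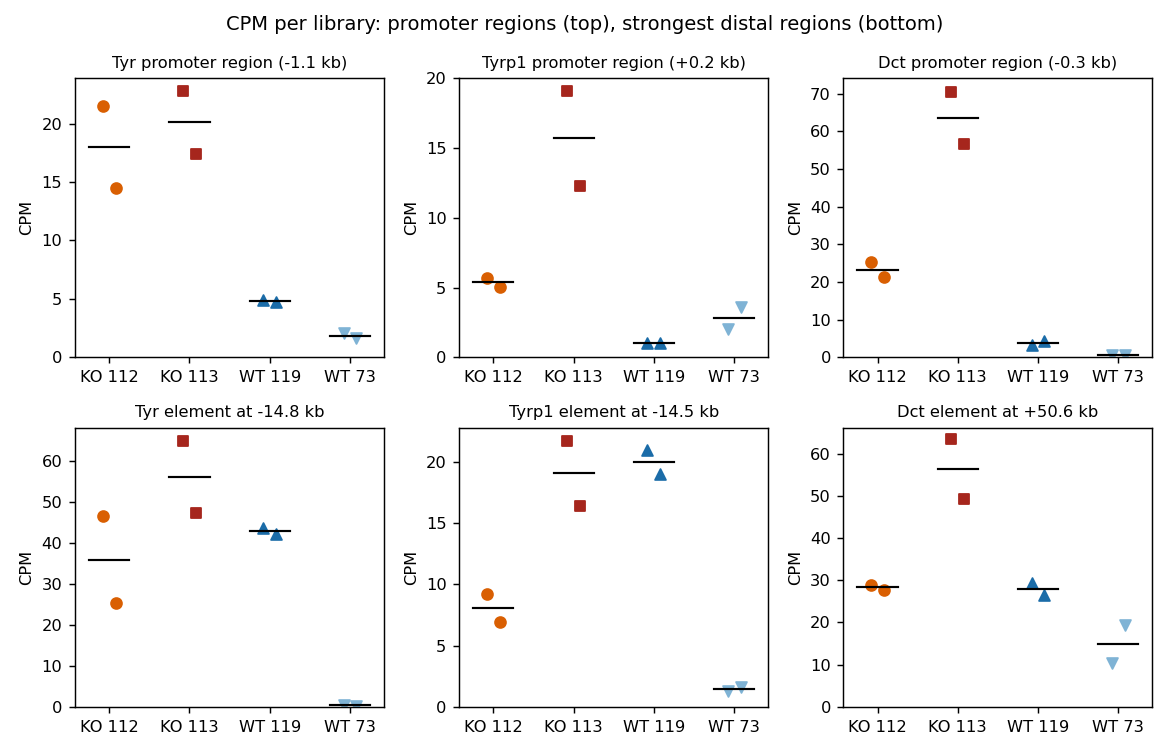
CPM (y axis) of each library at the promoter region (top row) and at the strongest distal region (bottom row) of Tyr, Tyrp1 and Dct, by line (x axis). Points are the 2 libraries of a line and the bar is their mean. At the promoters both wild type lines lie below both knockout lines, and at the distal regions line 119 lies within or near the range of the knockout lines while line 73 is lowest.

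For Tyr, the region that served as promoter (the one with most counts within 1 kb of the start) lay 479 bp upstream of the start at chr7:87493991-87495202. The 2 libraries of each line gave 21.5 and 14.5 CPM for line 112 and 22.8 and 17.4 for 113, against 4.93 and 4.75 for 119 and 2.03 and 1.65 for 73. The lowest knockout library was above the highest wild type library. Line means were 19.1 ± 1.49 CPM in the knockout (SD, n = 2 lines) and 3.34 ± 2.12 in the wild type. Compared as lines, the difference was 2.45 on the log2 scale (SE 0.85, edgeR adjusted p = 0.196), which did not pass the threshold of 0.05. In order, lines 113 and 112 did not differ beyond the spread between libraries (log2 difference -0.14, line 112 minus 113, SE 0.25, edgeR adjusted p = 0.711), and line 119 was above line 73 (1.38, SE 0.43, adjusted p = 0.00543).

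The region that spans the Tyr start itself (chr7:87492930-87493609, centre 0.2 kb inside the gene) separated the genotypes more widely. It had 12.3 and 6.96 CPM (line 112), 19.1 and 16.9 (113), 0.907 and 0.509 (119), and 0.76 and 1.1 (73). The wild type libraries held 3 to 7 counts each here, so the region passed the filter on low counts only through the knockout libraries. A small genotype p was among the reasons for naming it. The knockout lines were higher by 4.03 (log2, SE 0.94, edgeR adjusted p = 0.15, lines as units). Lines 119 and 73 did not differ beyond their spread at this region (-0.32, line 119 minus 73, SE 0.73, adjusted p = 0.719).

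The Tyrp1 promoter (chr4:80833919-80834951, spanning the start) was most accessible in line 113. It had 5.67 and 5.06 CPM (line 112), 19.1 and 12.3 (113), 1.04 and 1.02 (119), and 2.03 and 3.58 (73). The 4 knockout libraries were again above all 4 wild type libraries, with the smallest gap between line 112 and line 73. The genotype difference was 2.48 (log2, SE 0.94, edgeR adjusted p = 0.22, lines as units). Line 112 did not pass the threshold against line 73 (0.95, SE 0.42, adjusted p = 0.0534), and line 119 was below line 73 (-1.41, SE 0.52, adjusted p = 0.0176), the reverse of their order at Tyr and Dct.

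The Dct promoter (chr14:118052215-118052856, spanning the start) gave the largest genotype difference of the 31 regions tested. Line 112 had 25.3 and 21.2 CPM, line 113 70.5 and 56.5, line 119 3.37 and 4.24, and line 73 0.507 and 0.55, which is 2 counts in each library of line 73. All 4 lines differed from each other in the pairwise fits, in the order 113, 112, 119 and 73. Line 113 was above line 112 by 1.44 on the log2 scale (line 112 minus 113, -1.44, SE 0.19, edgeR adjusted p = 1.76e-07). From the counts, line 113 was 121-fold above line 73 (95% interval 46.9 to 445, exact conditional binomial, counting error only). The genotype difference was 4.22 (SE 0.92, edgeR adjusted p = 0.15, lines as units).

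A second region at the 5′ end of Dct, centred 1.1 kb inside the gene (chr14:118050464-118051849), behaved like the promoters. It had 24.3 and 22.5 CPM (line 112), 34.4 and 31.4 (113), 1.81 and 1.53 (119), and 3.04 and 1.65 (73). A small genotype p was, beside its high mean CPM, a reason for naming it. The wild type lines did not differ beyond their spread (-0.48, line 119 minus 73, SE 0.48, edgeR adjusted p = 0.39), nor did lines 112 and 113 (-0.49, SE 0.22, adjusted p = 0.0962). The difference between genotypes was 3.76 (SE 0.81, edgeR adjusted p = 0.15, lines as units).

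Of the distal regions of Tyr, the one with most counts lay 14.8 kb upstream (chr7:87508045-87508643). It had 46.5 and 25.3 CPM (line 112), 64.8 and 47.4 (113), 43.6 and 42.2 (119), and 0.507 and 0.275 (73). Line 119 lay inside the range of the knockout libraries, and line 73 held 3 counts in all. Line 119 did not differ beyond its spread from line 112 (-0.23, line 112 minus 119, SE 0.19, edgeR adjusted p = 0.325) or line 113 (0.39, SE 0.18, adjusted p = 0.0598). Its ratio over line 73 was 109-fold (95% interval 37 to 528, exact conditional binomial, counting error only). The genotype difference was 1.01 (log2, SE 1.08, edgeR adjusted p = 0.695, lines as units). The authors' peak lists have a peak here in all 6 libraries other than those of line 73, with folds over background of 10.8 to 15.4. The start-spanning Tyr region has a peak call in 3 knockout libraries and in no wild type library. The Tyr region 479 bp upstream has one in 3 knockout libraries and in line 119 replicate 1 (fold 4.61). The Dct promoter has one in all 4 knockout libraries and in both libraries of line 119, where its folds of 5.76 and 4.62 were near those of line 112 (5.91 and 4.26). The Tyrp1 promoter has one in both libraries of line 113 only (folds 6.25 and 6.24). It has none in knockout line 112 or in the wild type lines.

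Tyrp1 showed the same arrangement 14.5 kb upstream of its start (chr4:80819429-80819994). This element had 9.21 and 6.96 CPM (line 112), 21.7 and 16.4 (113), 20.9 and 19 (119), and 1.27 and 1.65 (73). Line 119 did not differ beyond its spread from line 113 (-0.06, line 113 minus 119, SE 0.23, edgeR adjusted p = 0.819) and was above line 112 (-1.28, line 112 minus 119, SE 0.26, adjusted p = 7.13e-05). It was above line 73 by 3.76 (SE 0.37, adjusted p = 2.16e-12). The genotype difference was 0.25 (SE 0.99, edgeR adjusted p = 0.947, lines as units), and without line 73, an alternative added after the data were seen, it turned to -0.58.

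At Dct the distal region with most counts was 50.6 kb past the start, 10668 bp beyond the 3′ end of the gene (chr14:118001141-118002122). It had 29 and 27.8 CPM (line 112), 63.4 and 49.3 (113), 29.4 and 26.5 (119), and 10.4 and 19.5 (73). Line 119 matched line 112 within the spread (0.02, line 112 minus 119, SE 0.2, edgeR adjusted p = 0.929). It was below line 113 (1.01, line 113 minus 119, SE 0.18, adjusted p = 5.37e-06) and above line 73 (0.91, SE 0.22, adjusted p = 0.000305). This was the region with most peak calls of the 32, in 7 of 8 libraries. Its genotype difference was 0.93 (log2, SE 0.63, edgeR adjusted p = 0.475, lines as units).

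In line 73 these low distal signals stood beside the marker levels given above, and their part was not tested. Sox10, Pax3, Kit, Ednrb and Mlana were lowest of the lines there, Mitf and Pmel highest, and the fibroblast markers other than Lum highest. The line also had the highest p number. The weakness was not general to all regions of the loci: at Tyrp1, the regions 32.1 kb and 39.1 kb past the start had 3.04 and 3.03 CPM and 4.56 and 4.95 CPM in line 73, within the 2.37 to 5.38 CPM of the other lines at these regions.

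Several distal regions did separate the genotypes. Both regions given here were named for a high mean CPM and also for a small genotype p, so a genotype difference was part of the choice. The region 45.9 kb upstream of Tyrp1 (chr4:80787584-80789040) had 8.03 and 10.1 CPM (line 112), 24 and 18.4 (113), 0.907 and 0.678 (119), and 0.507 and 1.38 (73). With 2 to 7 counts in each wild type library, it passed the filter on low counts only through the knockout libraries. Its genotype difference of 4.07 (SE 0.96, edgeR adjusted p = 0.15, lines as units) was larger than that of the Tyrp1 promoter, and lines 119 and 73 did not differ beyond their spread (-0.19, line 119 minus 73, SE 0.71, adjusted p = 0.832). The region 18.2 kb upstream of Dct (chr14:118070138-118070728) had 6.85 and 8.22 CPM (line 112), 30.7 and 22.8 (113), 2.85 and 3.22 (119), and 2.28 and 0.825 (73). All 4 knockout libraries lay above the wild type at both elements. At the Dct element, line 113 exceeded line 112 by 1.84 on the log2 scale (line 112 minus 113, -1.84, SE 0.28, edgeR adjusted p = 1.57e-06), and the genotype difference was 2.83 (SE 0.93, edgeR adjusted p = 0.18).

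Weaker regions, 4 of these 5 inside the genes, separated the genotypes in the same direction as the promoters. They were named for the smallest genotype p among the distal regions of their gene, so a genotype difference was part of the choice. They had enough counts to be tested only through the knockout libraries. At Tyr, the regions 5.3 kb and 43.7 kb past the start had 1.65 to 6.46 CPM in the knockout libraries and 0 to 1.1 in the wild type. At Tyrp1, the regions 5.8 kb and 21.6 kb past the start (the latter beyond its 3′ end) had 1.89 to 13.1 CPM in the knockout and 0.253 to 1.94 in the wild type. At Dct, the region 31.2 kb past the start had 1.65 to 5.53 CPM in the knockout and 0.253 to 0.389 in the wild type. It had no peak call in any library. These 5 have low counts, and their log2 genotype differences were 3.2, 2.58, 2.72, 2.8 and 3.32 in that order, with edgeR adjusted p values of 0.165 to 0.225.

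At 4 of the 31 tested regions both libraries of line 119 were above the other 6, a kind that made up 19.5% of all tested regions, so the members' share was below the background. One lay 35.6 kb upstream of Tyr (chr7:87528630-87529623), with 7.52 and 8.99 CPM (line 119), 2.6 and 4.43 (112), 2.07 and 2.45 (113), and 0.76 and 0.825 (73). It was below line 119 in line 112 (-1.26, SE 0.34, edgeR adjusted p = 0.00209) and in line 113 (-1.85, SE 0.36, adjusted p = 2.06e-05). Another lay 28.2 kb inside Dct, with 8.17 and 10.7 CPM in line 119 against 2.03 to 4.61 in all other libraries. At 9.7 kb inside Tyrp1, line 119 had 10.8 and 8.65 CPM and line 113 7.15 and 8.1, and these lines did not differ beyond their spread (-0.36, line 113 minus 119, SE 0.28, edgeR adjusted p = 0.268). The last of the 4, 30.5 kb past the Tyrp1 start, did not differ between lines 119 and 73 beyond their spread (0.75, SE 0.5, edgeR adjusted p = 0.195) and was the only region of the 31 at which all knockout libraries (0.245 to 1.18 CPM) lay below all wild type libraries (1.27 to 3.63 CPM). Of these 4, the regions inside Dct and 30.5 kb past the Tyrp1 start were picked out after their values were seen.

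**Figure D2:**
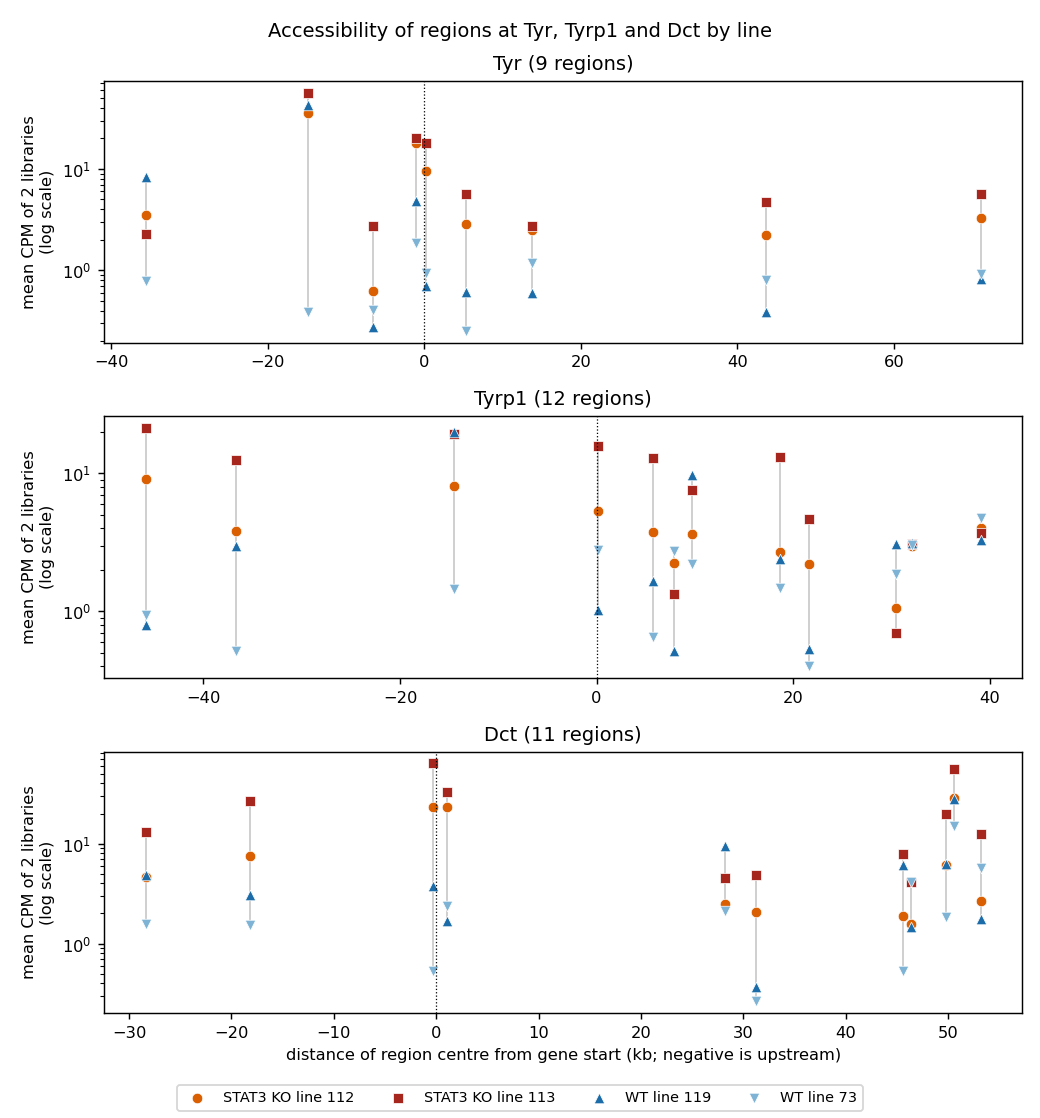
Mean CPM of the 2 libraries of each line (y axis, log scale) at every region of Tyr, Tyrp1 and Dct, by distance of the region's centre from the gene's start in kb (x axis, negative is upstream, dotted line at the start). At the starts both wild type lines (blue triangles) lie below both knockout lines (orange circles and red squares), while at the upstream elements of Tyr (14.8 kb) and Tyrp1 (14.5 kb) line 119 is above line 112.

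Of the 32 regions, 31 passed the filter on low counts. The exception, 6.5 kb upstream of Tyr, had 2.31 and 3.19 CPM in line 113 and 0.17 to 0.945 elsewhere. All 4 knockout libraries lay above all 4 wild type libraries at 15 of the 31 regions, or 48.4%, against 14.1% of all tested regions. They lay below at 1 (3.23%, against 12.7%). Of the 15 regions with the knockout above, 13 had a peak call in any library. Some of the 15, among them the weaker regions described above, passed the filter only through knockout libraries. The background was filtered in the same way. The 15 comprised all 3 promoters, 7 of 10 other regions inside the genes, 3 of 7 upstream and 2 of 11 downstream. By gene, they were 6 of 8 at Tyr, 5 of 12 at Tyrp1 and 4 of 11 at Dct. The shares were 70% inside, 42.9% upstream and 18.2% downstream, and the classes were not tested against each other. Line 73 had the lowest 2 libraries at 14 of the 31 regions (19.3% of all tested regions), 7 of them at Dct. Leaving out line 119, 23 regions had all knockout libraries above line 73 (background 28.4%) and 1 had them below (28.7%). Leaving out line 73, 16 regions had all knockout libraries above line 119 (background 27.7%) and 4 had them below (29.5%). Both alternatives were added after the data were seen.

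With lines as the units, edgeR called 0 of the 31 regions at an adjusted p under 0.05 (background 0%, and 0 of 134068 regions in all). At an unadjusted p under 0.05, 13 were higher in the knockout and 0 lower, against 7.48% and 9.06% of all tested regions. The log2 difference was above 0 at 25 of 31, with a median of 1.58, while the median over all tested regions was -0.134. DESeq2 on the same line sums called 6 (background 3.6% higher in knockout): the promoters of Tyr and Dct, the start-spanning region of Tyr, the regions 45.9 kb upstream of Tyrp1 and 18.2 kb upstream of Dct, and the region 1.1 kb inside Dct. limma-voom on the 8 libraries, with correlation within lines allowed for, called 0. Against a single wild type line, an alternative added after the data were seen, 10 were called higher in the knockout without line 73 (background 4.62%) and 17 without line 119 (11.7%). With 2 lines per genotype, edgeR recovered 0% of simulated 4-fold changes and 57% of 16-fold changes. The simulation gave all regions a common spread between lines, so these rates may not hold for these data. In the data, Ddx3y, Eif2s3y and Uty of chromosome Y differed by -10.04, -9.95 and -9.61 (log2, knockout minus wild type). They were not called (edgeR adjusted p = 0.15 each, lines as units).

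**Figure D3:**
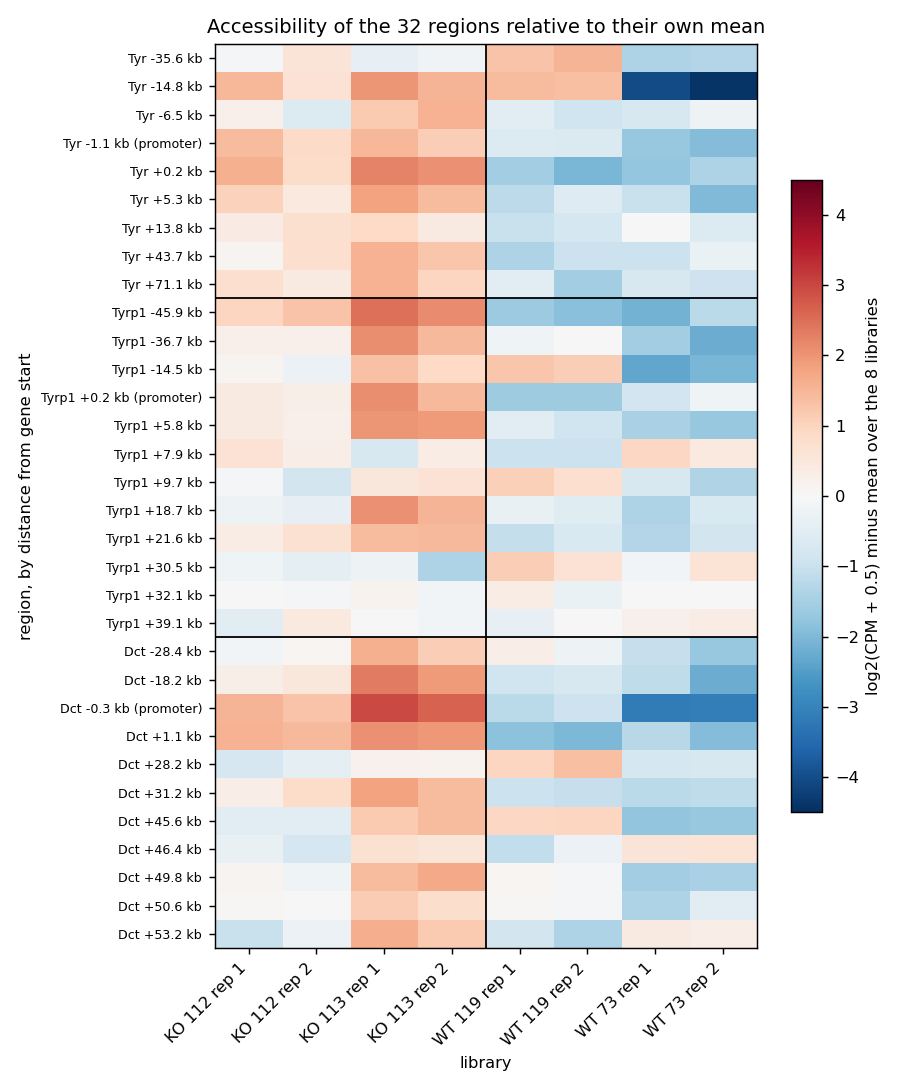
Accessibility of the 32 regions (rows, ordered by distance from the gene start, black lines between genes) in the 8 libraries (columns, black line between genotypes), as log2 of CPM plus 0.5, minus the region's mean over the libraries. Red is above and blue below the region's mean. The promoter rows are red in all knockout and blue in all wild type libraries, the rows 14.8 kb upstream of Tyr and 14.5 kb upstream of Tyrp1 are red in line 119, and line 73 is deepest blue at the former.

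Pairs of lines were compared in 1 fit of all 8 libraries, with p values adjusted over all regions within each pair. These tests measure the spread between libraries of a line and compare lines, not genotypes. Line 113 was higher than line 73 at 25 of the 31 regions (background 27.1%) and lower at 0 (background 27.4%). Line 112 was higher than line 73 at 19 (25.4%) and lower at 2 (27%). Against line 119, line 113 was higher at 21 (31%) and lower at 3 (30.1%), and line 112 was higher at 15 (23.4%) and lower at 6 (25.3%). In both comparisons with line 119 all 3 promoters were higher in the knockout line. Among the 7 tested upstream regions, line 112 was above line 119 at 2 and below it at 2, but above line 73 at all 7. In either direction, 21 regions differed between lines 112 and 119 (background 48.6%), 21 between 112 and 73 (52.4%), 24 between 113 and 119 (61.2%) and 25 between 113 and 73 (54.5%). These 4 comparisons share lines and are not independent.

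The lines of the same genotype also differed. Line 112 was lower than line 113 at 17 of 31 regions (background 16.5%) and higher at 0 (background 8.95%), and these included the promoters of Tyrp1 and Dct and 8 of 11 regions at Dct. The knockout line with the stronger signal at most elements was thus line 113. Line 119 was higher than line 73 at 12 (29.6%) and lower at 4 (30.7%). Of the 12, 5 were among the 7 upstream regions, including those 14.8 kb from Tyr and 14.5 kb from Tyrp1, and 6 were at Dct. In either direction, 17 regions differed between the knockout lines (background 25.5%) and 16 between the wild type lines (60.2%).

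To compare distal and promoter signal within a library, the log2 ratio of summed distal CPM to promoter CPM was taken, which needs no depth scaling. At Dct, it was 1.68 and 1.93 (line 112), 1.49 and 1.57 (113), 4.25 and 3.86 (119), and 5.99 and 6.1 (73). Both wild type lines had a larger distal share, with line means of 5.05 ± 1.4 in the wild type and 1.67 ± 0.2 in the knockout (SD, n = 2 lines). The difference, knockout minus wild type, was -3.38 (two-sided exact permutation test over lines, p = 0.33, the smallest that 2 lines against 2 allow). The ratios of line 73 divide by a promoter with 2 counts in each library. Summed distal CPM at Dct was itself lower in lines 119 and 73 (62.9 and 34.9) than in lines 112 and 113 (80.9 and 182). The larger distal share in the wild type is therefore not a larger distal signal.

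At Tyr and Tyrp1, line 119 alone had a raised ratio. For Tyr it was 3.48 and 3.51 in line 119, 1.71 to 2.3 in the knockout libraries and 1.52 and 1.74 in line 73, where promoter and distal signal were both low. For Tyrp1 it was 5.62 and 5.46 in line 119, 2.53 to 3.09 in the knockout libraries and 3.27 and 2.53 in line 73. These ratios of line 119 rest on 8 and 6 promoter counts. The genotype differences were -0.55 for Tyr (exact permutation test over lines, p = 1) and -1.36 for Tyrp1 (p = 0.667). For Tyr the difference turned to 0.22 with regions limited to 10 kb from the gene, which removes the upstream regions at 14.8 kb and 35.6 kb. Leaving out either one alone, alternatives added after the data were seen, gave -0.63 without the former and -0.39 without the latter. The ratio counts the start-spanning region of Tyr and the region 1.1 kb inside Dct as distal. With all regions within 2 kb of a start summed as promoter, the difference was -1.05 for Tyr and -3.04 for Dct. Adjusted over the 3 genes, no p could pass, since none of the raw values can go below 0.33.

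**Figure D4:**
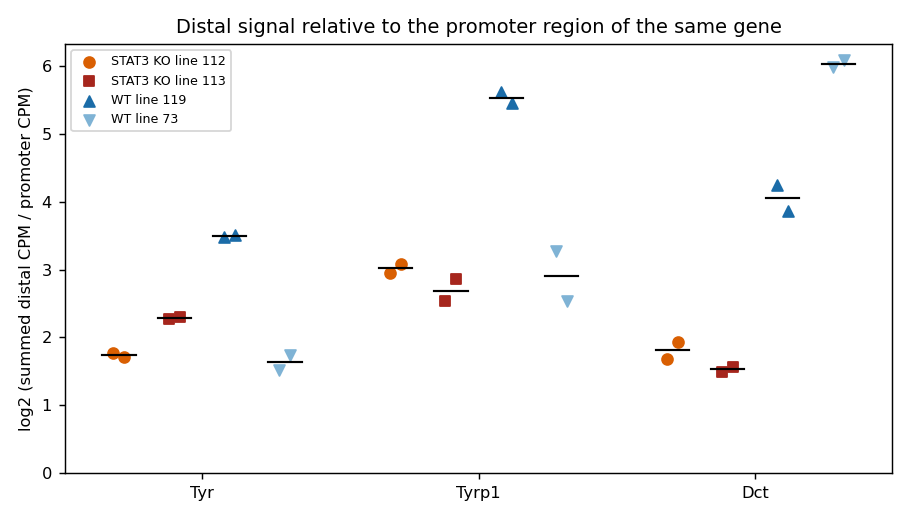
Log2 ratio of summed distal to promoter CPM (y axis) for Tyr, Tyrp1 and Dct (x axis). Points are libraries, coloured by line, and bars are line means. Line 119 is above both knockout lines for all 3 genes, and line 73 is above them for Dct.

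Summed over all its regions, Tyr had means of 78.6, 118, 59.4 and 7.51 CPM for lines 112, 113, 119 and 73. In the same order the sums for Tyrp1 were 48.8, 115, 49 and 22.9, and those for Dct 104, 246, 66.7 and 35.5. On these sums, which were not tested, line 119 was below line 112 at Tyr and Dct and level with it at Tyrp1, where its libraries (52.1 and 46 CPM) bracketed those of line 112 (49.6 and 48.1).

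The neighbourhoods of the genes were compared in the same lines. Over the other tested regions within 5 Mb, the median deviation of a line from the mean of the lines (log2) was lowest in line 73, at -0.642 around Tyrp1 (321 regions), -0.451 around Tyr (502 regions) and -0.131 around Dct (553 regions). In line 119 it was 0.389 around Tyr. The median genotype difference of these neighbours was 0.0758 at Tyrp1, -0.142 at Tyr and -0.14 at Dct. A fit with these regional medians as offsets also called 0 of the 31 regions between genotypes, and between lines 113 and 73 it called 23 higher and 3 lower, in place of 25 and 0.

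The patterns of the promoters across the 8 libraries were compared with those of 12576 regions at the starts or ends of protein-coding genes with a mean of at least 5 CPM, by Pearson correlation of log2 CPM. This describes 8 libraries of 4 lines, and with so many genes high values arise readily. Nearest to Tyr were Sp7 (0.996), Arpp21, Lyg1, Gm272 and Aff3. Nearest to Dct were Paqr6 (0.993), Tbx2, Apold1, Tpd52l1 and Sytl4. Nearest to Tyrp1 were Eml5 (0.989), Pard6b, the region shared by Gm30679 and Smox, Sorcs1 and Grpr. The Tyr and Dct promoters correlated at 0.979 with each other, and Tyrp1 at 0.713 with Tyr and 0.769 with Dct. The order of lines 119 and 73 at Tyrp1, reversed from that at Tyr and Dct, was shared by the 5 regions nearest to it. The choice by correlation over the same libraries favours this. Sorcs1, for example, had 1.07 CPM in line 119 and 3.6 in line 73. A correlation does not measure the size of differences: line means of Eml5 ran from 19.8 to 40.6 CPM, and those of Tyrp1 from 1.03 to 15.7.

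Other pigment genes were read in the same way at their strongest start or end region. Among genes of melanosome structure and ion transport, 5 of the 9 with a tested region (10 genes listed, Oca2 without one) had all knockout libraries above all wild type libraries and 0 below. Over all 13030 tested regions of this kind the shares were 5.53% above and 5.06% below. These were Mlana, Slc45a2, Slc24a5, Gpnmb and Trpm1. Trpm1, an ion channel gene regulated by MITF, had means of 16.4 and 37.1 CPM in lines 112 and 113 and 1.58 and 2.75 in lines 119 and 73. Pmel, the fibril protein of melanosomes, overlapped, with 39.9 and 64.7 against 32.8 and 73.8 CPM. Among 11 genes of melanosome biogenesis and transport, 3 were above (Rab27a, Rab38 and Mlph, which move melanosomes or sort their enzymes) and Hps1 below. Among 8 regulators of pigment cells, 3 were above (Sox10, Mc1r and Kit). The start region of Mitf itself overlapped, with 25.3 and 36.7 CPM in the knockout lines and 18.9 and 38.7 in lines 119 and 73.

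Over all their regions within 50 kb, 46 of 107 tested regions of the structure and ion transport genes lay above in the knockout (43%) and 4 below (3.74%). The regulators had 61 of 139 above (43.9%) and 8 below (5.76%), and the biogenesis genes 21 of 101 above and 21 below (20.8% each). For the melanin enzymes the shares were 48.4% and 3.23%, against 14.1% and 12.7% over all regions. None of these lists had a region called between genotypes by edgeR with lines as units.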

How the data were processed

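ATAC-seq counts were taken from a table of raw counts per region that the authors deposited for all 8 libraries. The submitters' processing notes name Bowtie2 2.2.4, Picard 1.118, MACS2 2.1.1.20160309 and the builds mm10 and GRCm38, without saying which step used each. The treatment of duplicates, any shift for the Tn5 cut and what was counted (reads, fragments or cuts) are not given in the sources used here, so counting intervals and floors cover counting error only. Peaks were deposited per library, not pooled. Their fold over background, a ratio deposited by the authors for each peak, was used only to describe peaks, and the deposited scores, −log10 p and −log10 q were not used. Regions start 250 bp before a peak summit in 71.9% of cases, so starts were read as 0-based and are printed 1-based. Genes and promoters came from RefSeq GRCm38.p6 tables, which give no exons, so regions inside a gene were not split into exons and introns. A genome sequence was not used, so distal elements are given without sequence.

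Regions were filtered with filterByExpr of edgeR 4.0.16 (minimum count 10, minimum total 15, by line), which kept 134068 of 148664, and scaled by TMM. Genotypes were compared with edgeR's quasi-likelihood test on counts summed per line, 2 lines against 2. Pairs of lines were compared in a fit of the 8 libraries. Adjustment was by Benjamini-Hochberg over all tested regions at 0.05. The labels call the libraries of a line biological replicates without naming separate cultures, so p values between lines may measure technical spread. Chi-square per degree of freedom between replicates was 2.19, 1.61, 1.07 and 1.44 in lines 112, 113, 119 and 73. The named regions were the promoter of each gene, the 3 distal regions with the highest mean CPM, the 3 with the smallest genotype p, and the 5 gene-start regions most like each promoter. The genes, lists and markers were chosen with earlier results of these data known. On simulated counts of 30000 regions with 200 changed, the comparison of line 112 with line 73 recovered 73.5% of 4-fold changes (8 false among 155 calls), and the genotype test recovered 0% at 4-fold and 57% at 16-fold (6 false among 120 calls). The simulated regions shared a common spread, so these rates may not hold for these data. Alternatives were another scaling, filter, tool, unit, regional offset, gene window, start window, replicate block and each library left out.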

Additional observations from a re-analysis of the deposited data

How the results depend on the processing

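The count of 0 regions called between genotypes rose to 16 with libraries as units (background 11.4% higher in knockout), which treats libraries of a line as independent, to 13 with a replicate block added to that (8.63%) and to 6 with DESeq2. Dropping 1 line, added after the data were seen, left 10 without line 73 (4.62%) and 17 without line 119 (11.7%). Leaving out each library in turn gave 0 to 3, with 3 without line 112 replicate 1 (background 0.194% higher in knockout). Regions with all knockout libraries above numbered 23 without line 119 (background 28.4%) and 15 to 18 over single libraries left out. Regions below numbered 4 without line 73 (29.5%), 0 within 10 kb and 1 whichever library was left out. With all libraries the backgrounds were 14.1% above and 12.7% below. They were not taken with single libraries left out.

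Calls between lines 112 and 119 fell from 21 to 13 with DESeq2, while those over all 134068 tested regions fell from 65214 to 37543. With regions limited to 10 kb from a gene, calls were 16 (112 and 119), 11 (112 and 73), 15 (113 and 119), 15 (113 and 73), 8 (112 and 113) and 8 (119 and 73). The backgrounds of these pairs, in either direction, were 48.6%, 52.4%, 61.2%, 54.5%, 25.5% and 60.2% in that order. The limit leaves fewer regions, so these counts cannot be set against those of the 31 regions. Leaving out 1 library gave 13 to 21 (112 and 119, lowest without line 119 replicate 1), 15 to 21 (112 and 73), 24 to 26 (113 and 119), 23 to 26 (113 and 73), 13 to 19 (112 and 113) and 13 to 18 (119 and 73). Calls over all regions moved too. Without line 119 replicate 1 they numbered 45719 of 141407 between lines 112 and 119. Replicate numbers did not pair the libraries (correlations of deviations -0.0372 to 0.00469), and a replicate block gave 21, 21, 24, 25, 17 and 16 calls in the order of the pairs above. Scaling by total counts moved the median over all regions from 0.044 to 0.337 (112 minus 73) and from 0.079 to 0.405 (112 minus 113), with 21 and 13 regions called in these pairs, against 21 and 17; line 113 remained higher at all 13.

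The Tyr distal to promoter difference became 0.22 within 10 kb and -1.05 with regions within 2 kb of the start summed as promoter. It was -0.63 without the region 14.8 kb upstream alone and -0.39 without that at 35.6 kb alone, both added after the data were seen. Its range over single libraries left out was -0.6 to -0.5, against -1.55 to -1.18 for Tyrp1 and -3.48 to -3.29 for Dct. Single regions turned sign between genotypes 35.6 kb upstream of Tyr (1.83 without line 119), 14.5 kb upstream of Tyrp1 (-0.58 without line 73) and 9.7 kb inside Tyrp1 (0.05 with limma-voom, 0.05 without line 119 replicate 1, range -0.24 to 0.05, and 1.36 without line 119). Only the promoters and the named distal regions were followed singly through the settings. The others among them kept their direction in all settings. The remaining regions were not followed in this way, and the causes of the changes were not tested. Depth limits the weaker regions named for a small genotype p, where wild type libraries hold 0 to 15 counts.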
